A study of Homo sapiens with 10 samples.

Results

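Human chromosome 19 carries its last arrays of zinc finger genes between 55 Mb (hg19) and the long-arm telomere, and ZNF274 itself lies within them (58694396 to 58724928). The genes described here are those with a zinc finger symbol (ZNF, ZFP, ZSCAN, ZKSCAN, ZIM, ZIK, RBAK or HKR, with a number and at most 1 letter) that start in this interval, are listed in both deposited count tables and are not ZNF274 itself. There were 65 of them among the 24050 genes of either table, of which 19665 were in both. All but the pseudogene ZNF542P are annotated as protein-coding, and ZSCAN5C and ZSCAN4 were left out because only the HEK293T table lists them. The 65 genes fell into 3 clusters separated by at least 250 kb, with 7 genes from ZNF628 to ZNF581, 13 from ZNF787 to ZNF835, and 45 from ZNF264 to ZNF446. ZNF274 sits inside the third cluster, with 56 of the 65 genes on its centromeric side and 9 on its telomeric side.

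Most genes of these arrays arose by tandem duplication and encode proteins that read DNA through a row of C2H2 zinc fingers. In KRAB zinc finger proteins (KZFPs) an N-terminal KRAB domain recruits TRIM28 (KAP1), which brings SETDB1 and heterochromatin proteins and leads to H3K9me3 on the bound sequence. The SCAN domain found in other family members mediates dimerization, and ZNF274 holds both kinds of domain and binds the 3' exons of KZFP genes. Translated coding sequences matched a KRAB A box profile in 44 of the 65 genes, a SCAN profile in 6 (ZNF444, ZSCAN5A, ZSCAN5B, ZSCAN1, ZSCAN18 and ZSCAN22), both in 1 (ZNF446) and neither in 13, while ZNF542P has no coding sequence. The number of fingers ranged from 2 to 23, with a median of 11.

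RNA-seq was available for 3 WT and 3 ZNF274 KO libraries of HEK293T cells, a transformed line from human embryonic kidney, and for 2 WT and 2 ZNF274 KO libraries of neural progenitor cells (NPCs) differentiated from the H1 embryonic stem cell line. ZNF274 was deleted with CRISPR-Cas9 and a pair of guides flanking the gene, and the deposit describes the libraries as independent WT and KO clones. No other genotype or treatment is given for any group. The WT HEK293T libraries are S15, S16 and S17 and the KO ones S18, S19 and S20, while the WT NPC libraries are S3 and S5 and the KO ones S1 and S2. Each HEK293T library had 21421013 to 32285876 counts on genes and each NPC library 18621266 to 23035490, so that 3 counts, taken as the detection floor, correspond to 0.0921 to 0.154 CPM (counts scaled to the normalized library size). ZNF274 had 0 counts in all 5 KO libraries, at least 137-fold lower than WT in HEK293T cells and at least 172-fold lower in NPCs.

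Some features of the libraries stand beside the results. The telomeric end of chromosome 19 was lower in KO HEK293T libraries S18 and S19 than in S20, as described further on, and results for HEK293T cells are therefore also given without them. In NPCs, 6 of 10 neural progenitor markers fell in the KO (SOX2, SOX1, PAX6, FABP7, POU3F2 and OTX2), 4 of 9 tested mesenchymal markers rose (COL1A1, COL3A1, TWIST1 and PDGFRB) and 3 of 6 simple epithelial keratin and adhesion genes rose (KRT7, KRT8 and KRT18), where 8.45% of all genes tested in NPCs were called higher and 8.36% lower. The summed level of the 10 neural progenitor markers was 9725 to 9900 CPM in WT and 9625 to 10332 CPM in KO NPCs, most of it from VIM and NES, and without these it was 618 to 926 CPM in WT and 59.9 to 91.7 CPM in KO, with HES5 detected in both WT libraries and at 0 in both KO libraries, and the 10 mesenchymal markers summed to 1328 to 2218 CPM in WT and 5272 to 6084 CPM in KO, with TWIST2 at 0 in every NPC library. The epithelial genes summed to 342 to 597 CPM in WT and 1317 to 1475 CPM in KO, and 5 of the 6 were above the floor in both KO libraries, while CDH1 had 1 count in S1 and 5 in S2. The part of this difference between the cultures in the NPC results was not tested, and in bulk RNA fewer cells expressing a gene and less RNA per cell cannot be told apart.

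In WT cells the zinc finger genes of this interval were expressed at low levels. With CPM normalized within each cell type, the median gene was at 1.05 CPM per kb of exon in HEK293T cells and 1.46 in NPCs. The highest levels per kb in WT HEK293T were those of ZNF581 (22.4 CPM per kb), ZNF787 (9.67) and ZNF134 (5.62), and in WT NPC those of the pseudogene ZNF542P (24.0), ZNF581 (11.9) and ZNF134 (11.6). The mean level reached 1 CPM for 51 of the 65 genes in WT HEK293T and for 63 in WT NPC. Between the WT groups, 20 of the 65 genes were higher in NPC and 4 were lower (ZNF787, ZNF587B, ZNF324B and ZNF324), against 25.2% and 15.5% of all genes tested. In this comparison the cell type cannot be told apart from anything else that differs between the libraries of the 2 tables. Within 0.5 Mb of ZNF274 on the centromeric side, 11 of 17 genes (64.7%) were higher in NPC, with a median log2 difference of 2.39 against 0.13 over all genes tested.

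In HEK293T cells, 11 of the 59 tested genes (18.6%) were up-regulated in the KO and 0 were down-regulated, where 0.478% of all genes tested were up-regulated and 0.0105% down-regulated. Calls required an adjusted P value below 0.05 together with a fold change (FC) above 2 in edgeR's quasi-likelihood test and Benjamini-Hochberg adjustment over all genes. Over the 59 genes the median log2 FC was 0.68, or 0.62 with genes at 0 in every WT library set to their lower bound, against 0.01 over all genes. In all, 47 of the 59 lay above 0, and 27 genes were higher and 1 was lower when P values below 0.05 were taken unadjusted, a level that 1354 of all 19018 genes reached. DESeq2 called 20 higher and 0 lower, and voom 10 and 0. For 26 genes every KO library was above every WT library and for 0 genes every KO library was below, against 7.16% and 5.27% of all genes. The other 6 genes had too few counts to be tested and are described with the silent genes. Of the 66 tested genes of the interval that have no zinc finger symbol, 3 were up-regulated (ZNF582-DT, ZNF667-AS1 and ENSG00000176593) and the median was 0.06. The zinc finger genes on the rest of chromosome 19 had 30 of 177 up-regulated with a median of 0.51, and those on other chromosomes 14 of 268 with a median of 0.11. The count of up-regulated genes was 5 without WT library S15, 5 without WT library S16, 19 without KO library S20 and 5 without KO libraries S18 and S19 together, and the median was 0.31 without S18, 0.99 without S20 and 0.18 without S18 and S19 together. ZNF667, ZFP28, ZSCAN18 and ZNF329 remained up-regulated whichever of the 6 libraries was left out, and also without S18 and S19 together.

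**Figure D1:**
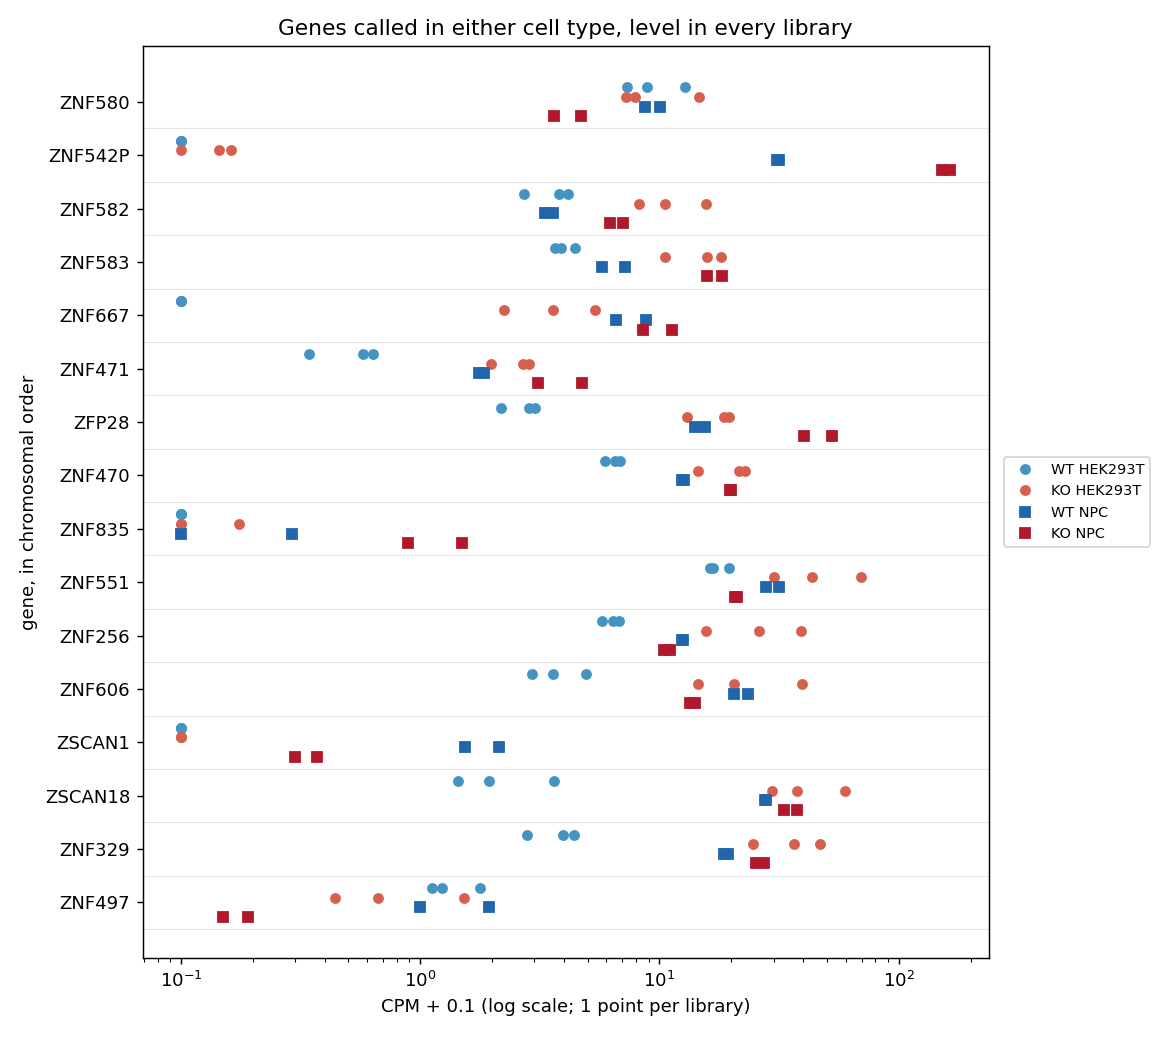
Level of each gene called in either cell type, in every library, as CPM plus 0.1 on a log scale, with genes in chromosomal order from top to bottom and 1 point per library. In HEK293T cells (circles) the KO points of the 11 up-regulated genes, from ZNF582 to ZNF329, lie to the right of all WT points, and in NPCs (squares) they lie to the right for ZNF542P, ZNF583, ZFP28 and ZNF835 and to the left for ZNF580, ZSCAN1 and ZNF497, the genes called there.

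The first group of up-regulated genes lies 1 to 2 Mb centromeric of ZNF274, where 6 of the 9 tested genes were up-regulated with a median log2 FC of 1.72. The 6 are consecutive among the tested genes, from ZNF582 (56887215 to 56904907) to ZNF470 (57078837 to 57100279), and all encode KRAB proteins. ZNF582 was at 2.60, 3.68 and 4.03 CPM in WT and 15.5, 10.4 and 8.11 CPM in KO libraries (log2 FC 1.72 ± 0.29 SE, adjusted P value = 0.0258). ZNF583 was at 3.54, 3.79 and 4.34 CPM in WT and 18, 15.8 and 10.5 CPM in KO libraries (log2 FC 1.92 ± 0.25 SE, adjusted P value = 0.00439). In both genes every KO library was above every WT library, and S18 was the highest of the KO libraries.

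ZNF667 (56950694 to 56989434) had 0 counts in each WT HEK293T library and 49, 114 and 141 counts in KO libraries S18, S19 and S20, at least 35.8-fold higher (adjusted P value = 0.000894). It was the only gene of the 11 in which S20 was the highest KO library. Its antisense neighbour ZNF667-AS1 was also up-regulated, and the strand setting of the counting is not given in the sources used here, so reads of the pair may not be fully separated. ZFP28 (57050317 to 57068177) was at 2.07, 2.75 and 2.91 CPM in WT and 19.3, 18.5 and 12.9 CPM in KO (log2 FC 2.71 ± 0.25 SE, adjusted P value = 0.000356). ZNF471 rose from 0.241 to 0.534 CPM in WT to 1.87 to 2.75 CPM in KO (log2 FC 2.51, adjusted P value = 0.0177). ZNF470 rose from 5.84 to 6.74 CPM to 14.4 to 22.6 CPM (log2 FC 1.62, adjusted P value = 0.00577). With single libraries left out, the calls on ZNF582 and ZNF471 were lost without S15, S16, S17 or S19. The call on ZNF470 was lost without S15 or S16, and that on ZNF583 without S16. The run of called genes, from ZNF582 to ZNF470, ended on both sides. ZNF71, the next gene toward ZNF274, was not called (log2 FC 0.72, adjusted P value = 0.639). Its value lay beside the median of 0.68 over all 59 tested genes, so the missing call shows no end of the difference there. ZSCAN5A, the next tested gene on the other side, had a log2 FC of -0.08.

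The second group lies next to ZNF274. Within 0.5 Mb on the centromeric side, 5 of 14 tested genes were up-regulated, all 14 had a log2 FC above 0, and the median was 1.28, or 1.02 with ZNF135 at its lower bound. ZNF329 (58637615 to 58666477), which matched neither domain profile and is the nearest zinc finger gene on this side at 27.9 kb, was at 2.70, 3.85 and 4.30 CPM in WT and 46.8, 36.5 and 24.5 CPM in KO libraries, 9.91-fold higher (log2 FC 3.31 ± 0.28 SE, adjusted P value = 0.000201). ZSCAN18 (58595205 to 58629794, 64.6 kb away), a SCAN protein, was at 3.51, 1.34 and 1.83 CPM in WT and 59.4, 37.5 and 29.4 CPM in KO, 18.8-fold higher (log2 FC 4.24 ± 0.38 SE, adjusted P value = 0.000328). For both genes even the lowest KO library was several times the highest WT library.

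Farther along the same side, ZNF606 (179.7 kb) was at 2.84, 4.82 and 3.49 CPM in WT and 39.4, 20.5 and 14.4 CPM in KO (log2 FC 2.73 ± 0.36 SE, adjusted P value = 0.00513). ZNF256 (235.3 kb) was at 6.31, 5.64 and 6.67 CPM in WT and 38.9, 26.1 and 15.5 CPM in KO (log2 FC 2.11 ± 0.30 SE, adjusted P value = 0.00718). These KZFP genes kept the order S18, S19, S20 among the KO libraries. ZNF551 (465.7 kb) rose less, from 16.1 to 19.4 CPM in WT to 30.1 to 69.7 CPM in KO (log2 FC 1.45, adjusted P value = 0.0423). Its call was lost without S15, S16, S17 or S19, that on ZNF256 without S15 or S16 and that on ZNF606 without S15. Values along this stretch were not even. The genes from ZNF417 to ZNF552, which lie between ZNF256 and ZNF551, had lower values of 0.12 to 0.92 with no call. Among those, ZNF587, ZNF587B, ZNF417 and ZNF814 are near-identical paralogs that share reads, which counting of uniquely mapped reads can lose.

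Between 0.5 and 1 Mb from ZNF274 no gene was called, while 11 of 19 passed 0.05 unadjusted (1354 of 19018 over all genes), all 19 genes had a log2 FC above 0 (median 1.06), and in 10 of the 19 every KO library was above every WT library. From ZNF772 to ZNF211 (705.5 to 539.0 kb) the log2 FC of the tested genes was 0.93 to 1.5, apart from ZIK1 with a fitted value of 6.92. ZNF416 gives an example, with 7.41, 8.88 and 10.5 CPM in WT and 37.4, 23.6 and 14.8 CPM in KO libraries (log2 FC 1.5 ± 0.30 SE, adjusted P value = 0.0800). ZNF134, the most abundant of these genes per kb, was at 28.0, 27.5 and 31.1 CPM in WT and 93.1, 58.5 and 41.5 CPM in KO (log2 FC 1.16 ± 0.25 SE, adjusted P value = 0.110). In these genes the groups did not overlap, but the KO libraries spread widely among themselves, from S20 up to S18. DESeq2 called 20 genes of the interval up-regulated, including all 11 above and 9 more, of which ZNF772, ZNF419, ZNF773, ZNF549, ZNF550, ZNF416, ZNF530 and ZNF134 lie in this stretch. Other fits with edgeR called some of these genes too, namely ZNF134, ZNF416 and ZNF772 with all 10 libraries in 1 fit, ZIK1, ZNF416 and ZNF772 with no filter beyond 1 count, ZNF772 with library size alone, ZIK1 without S19, and ZNF134, ZNF416, ZNF419, ZNF530, ZNF549, ZNF772 and ZNF773 without S20.

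The 7 genes of the first cluster, together with ZNF787 and ZNF444, lie beyond 2 Mb from ZNF274. None of the 9 was called in HEK293T cells or had an unadjusted P value below 0.05 (edgeR), the log2 FC ranged from -0.44 to 0.18, and the median was 0.02. Of these, 8 matched neither a KRAB nor a SCAN profile and ZNF444 has a SCAN domain, so that distance from ZNF274 and protein type cannot be told apart here. By protein type, 9 of 41 tested KRAB genes were up-regulated with a median log2 FC of 1.12, against 1 of 12 genes with neither domain (ZNF329, median 0.01) and 1 of 5 SCAN genes (ZSCAN18, median 0.04). Over the 51 tested centromeric genes the log2 FC was negatively correlated with distance in rank (Spearman's rho -0.55 across genes). In NPCs rho was 0.13 over 56 genes. The centromeric medians in HEK293T cells did not fall steadily with distance. Within 0.5 Mb the median was 1.28, or 1.02 with ZNF135 at its lower bound. It was 1.06 between 0.5 and 1 Mb, 1.72 between 1 and 2 Mb and 0.02 beyond 2 Mb. Genes share libraries and neighbourhoods and are not replicates, so that these correlations are descriptions only.

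**Figure D2:**
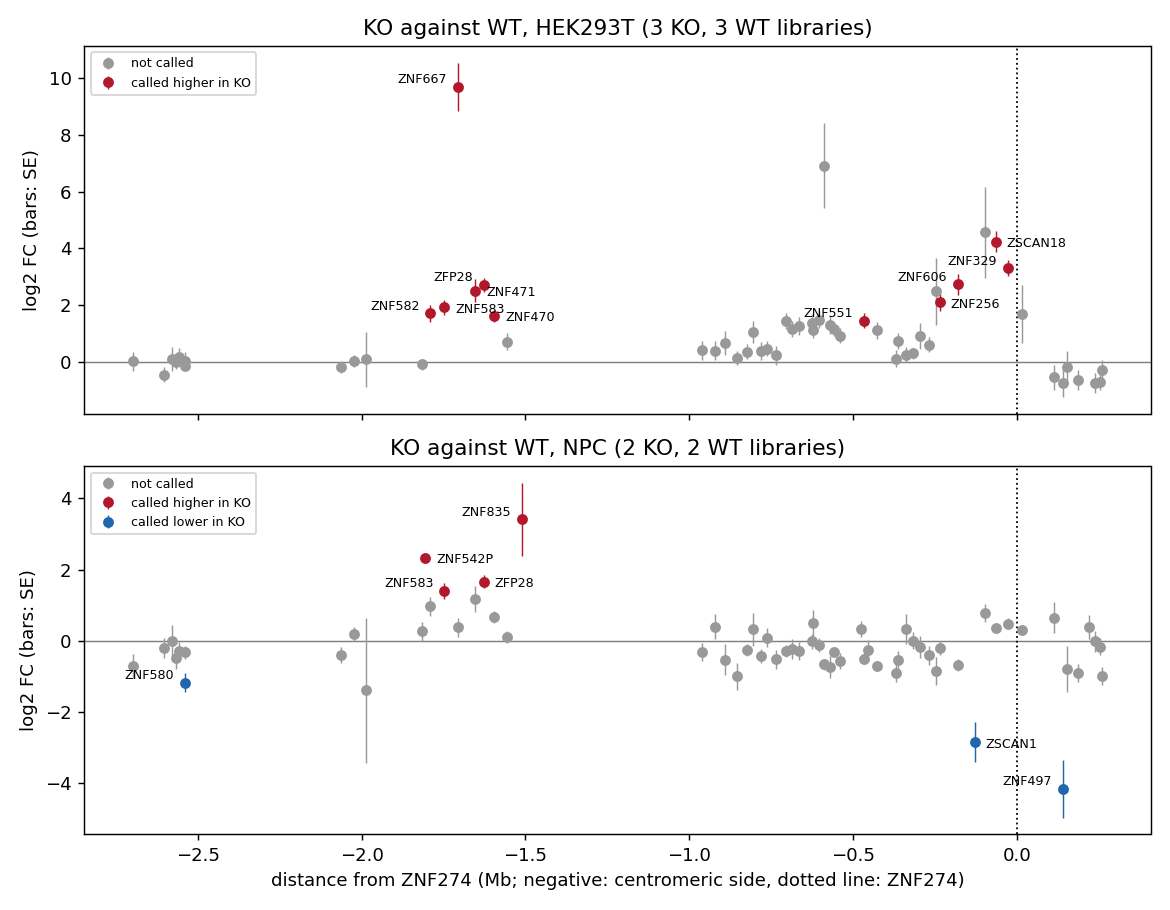
Fitted log2 FC of each tested gene against its distance from ZNF274 in Mb, for HEK293T (top, 59 genes) and NPC (bottom, 65 genes). Bars are standard errors, coloured points were called and the dotted line marks ZNF274. In HEK293T the called genes form 2 groups, between 1.5 and 2 Mb and within 0.5 Mb on the centromeric side, whereas in NPC the genes called higher lie only in the first of them. ZNF667 and ZNF135 had 0 counts in WT HEK293T and ZIK1 had 1, so that their fitted values are no measure of size.

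The 9 genes telomeric of ZNF274 behaved differently in HEK293T cells, and the KO libraries disagreed there. None was called by edgeR (1 passed 0.05 unadjusted), and 7 of the 8 tested had a log2 FC below 0, with a median of -0.59. ZNF324 was at 22.9, 18 and 20.4 CPM in WT libraries and at 9.0, 9.52 and 19.6 CPM in KO libraries S18, S19 and S20 (log2 FC -0.69 ± 0.28 SE, adjusted P value = 0.651). ZNF584 was at 12.8, 11.9 and 12.2 CPM in WT and at 5.07, 5.10 and 13.6 CPM in S18, S19 and S20 (log2 FC -0.63 ± 0.35 SE, adjusted P value = 0.763), and without S20 it was called down-regulated. For both genes S18 and S19 were far below every WT library, and S20 was within or above the WT range. The median ratio to the WT mean over the 7 telomeric genes at 1 CPM or more in WT was 0.387 in S18, 0.468 in S19 and 1.11 in S20. In single WT libraries it was 0.832 to 1.38. Here and below, a single WT library was set against the mean of the other WT libraries. Whether the DNA copy number of this region differs between the clones was not tested.

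The genes without a zinc finger symbol on this side showed the same split. For the 14 of them at 1 CPM or more in WT, the median ratio was 0.468 in S18 and 0.419 in S19, with all 14 below 1 in both libraries, and 1.03 in S20, against 0.843 to 1.15 in single WT libraries, while the median over every gene was 0.953, 0.992 and 0.990 in these libraries and over genes without a zinc finger symbol on the rest of chromosome 19 it was 0.819, 0.866 and 0.834. Single WT libraries also differed over the latter genes, from 0.803 in S16 to 1.18 in S15. These genes include TRIM28, 331 kb telomeric of ZNF274, which encodes the corepressor that KRAB domains recruit. TRIM28 was at 1027, 813 and 992 CPM in WT and at 313, 353 and 846 CPM in S18, S19 and S20 (log2 FC -0.90 ± 0.31 SE, adjusted P value = 0.537). In NPCs TRIM28 was at 679 and 753 CPM in WT and 447 and 488 CPM in KO libraries, a fall of less than 2-fold (log2 FC -0.61 ± 0.11 SE, adjusted P value = 0.00620). NPC libraries did not show the split, as the median ratio of the 9 telomeric zinc finger genes was 0.814 and 0.970 in the KO libraries.

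On the centromeric side the same 2 libraries were the higher ones up to 2 Mb. Within 0.5 Mb the median ratio to the WT mean was 3.29 in S18, 2.01 in S19 and 1.20 in S20, between 0.5 and 1 Mb it was 2.85, 1.60 and 1.22, and between 1 and 2 Mb it was 3.95, 3.15 and 2.29. Beyond 2 Mb it was 1.34 in S18, 0.822 in S19 and 0.754 in S20, against 0.834 to 1.36 in single WT libraries. Of the 33 tested genes within 1 Mb on this side, S18 was the highest KO library for 28 and S20 the lowest for 30, and 9 of the 33 were below every WT library in S20. All 11 up-regulated genes were above every WT library in S20 as well, but S20 was part of the fit that called them. Over all 59 tested genes S20 was above every WT library for 31 and below every WT library for 17. The part of the telomeric difference in the centromeric one was not tested. Without S18 and S19, S20 stands alone in its arm and is assumed to vary like the WT libraries, and ZIK1, ZFP28, ZNF329, ZNF667 and ZSCAN18 were then called.

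ZNF544 (58739960 to 58788861), a KZFP gene 15 kb telomeric of ZNF274 and the nearest of the 65 on that side, had a pattern of its own. It had 214, 66 and 159 counts in WT HEK293T libraries and 0, 875 and 569 counts in S18, S19 and S20, so that S18 was below and S19 and S20 were above every WT library (log2 FC 1.71 ± 1.02 SE, adjusted P value = 0.778). Its log2 FC was -0.62 with voom, and without S18 it was called up-regulated. In NPCs it had 656 and 674 counts in WT and 766 and 953 in KO libraries (log2 FC 0.30, adjusted P value = 0.161). The next genes on this side, ZSCAN22 and ZNF497, had log2 FC of -0.54 and -0.72 in HEK293T cells, with 22 and 13 counts in S18 against 88 to 145 and 30 to 50 in WT libraries. Without S18 and S19 their log2 FC were 0.21 and 0.16.

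**Figure D3:**
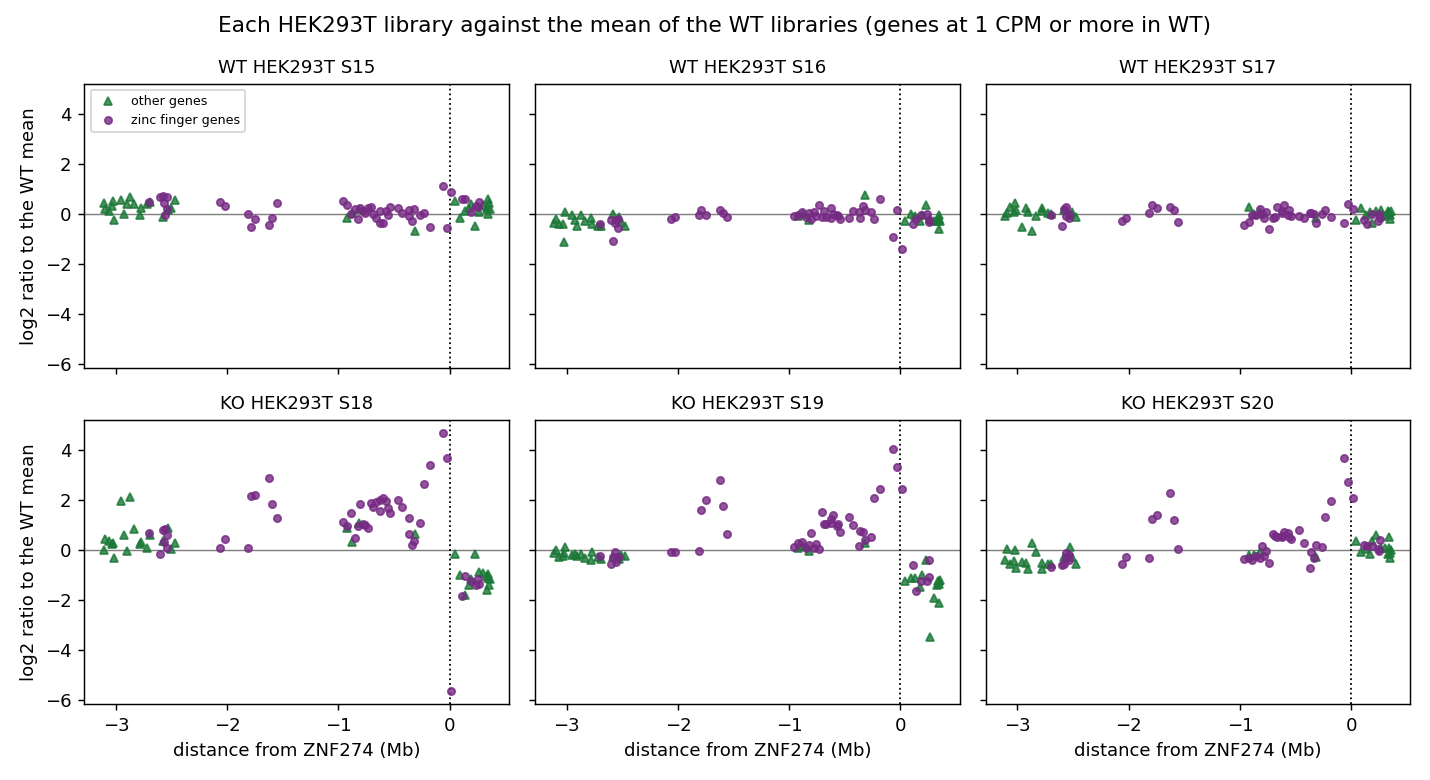
Each HEK293T library against the mean of the WT libraries, as log2 ratio per gene (pseudocount 0.1 CPM, genes at 1 CPM or more in WT) by distance from ZNF274 in Mb, with zinc finger genes as circles, other genes of the interval as triangles and ZNF274 at the dotted line. Each WT library was set against the mean of the other WT libraries. WT libraries are themselves shifted on the telomeric side, with a median ratio of 1.38 in S15 and 0.832 in S16 for the zinc finger genes. KO libraries S18 and S19 lie farther below 0 there (0.387 and 0.468), and S20 is at 1.11.

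Of the 65 genes, 11 were silent or nearly so in WT HEK293T cells, with at most 3 counts in every WT library (ZSCAN5B, ZNF542P, ZNF667, ZNF835, ZIK1, ZNF154, ZNF671, ZNF418, ZSCAN1, ZNF135 and ZNF132). Apart from ZSCAN5B and ZNF835, all were called higher in WT NPC (25.2% of all genes tested were), a direction that the choice of genes silent in HEK293T cells largely fixes. Among them ZNF667 was up-regulated in KO HEK293T cells, and ZIK1 was called in some fits. ZIK1, whose product was named for its interaction with the K protein, had 1, 0 and 0 counts in WT and 57, 1 and 86 counts in S18, S19 and S20, so that it came on in 2 of the 3 KO libraries (counting ratio 155, 95% interval 27.4 to 6166, adjusted P value = 0.112). It was called up-regulated without S19, with no filter beyond 1 count, and without S18 and S19 together. ZNF135, 96.7 kb from ZNF274, had 0 counts in WT and 4, 2 and 2 in KO libraries, and ZNF418 had 2 counts in all WT and 12 in all KO libraries. ZNF154, ZSCAN1 and ZNF132 stayed at 0 counts in all 6 HEK293T libraries, and ZNF542P, ZNF835, ZNF671 and ZSCAN5B stayed at or under the floor of 3 counts in each. Among these, ZSCAN1 lies between ZNF606 and ZSCAN18, and ZNF154 overlaps ZNF551 on the opposite strand, so that silent genes lay next to up-regulated ones.

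The promoters of 4 of these silent genes are shown because pairs of them have equal numbers of CpG dinucleotides but differed in the KO libraries, a choice made after the values were seen. They cover 250 bases before to 50 after the start given by RefSeq (GRCh38.p14), placed on hg19 by an exact match, and CpG dinucleotides, searched as CG, which reads the same on both strands, are in capitals. ZNF667 (chr19:56988665-56988964, minus strand) came on in all 3 KO libraries and ZSCAN1 (chr19:58545143-58545442, plus strand) in none, and each holds 42 CpG, a number reached by 5.8% of all RefSeq promoters. ZIK1 (chr19:58095263-58095562, plus strand) came on in 2 KO libraries and ZNF132 (chr19:58951471-58951770, minus strand) in none, and each holds 20 CpG, reached by 41.2% of promoters. ZIK1 lies centromeric of ZNF274, and ZNF132 lies on the telomeric side, where S18 and S19 were lower than S20.
ZNF667: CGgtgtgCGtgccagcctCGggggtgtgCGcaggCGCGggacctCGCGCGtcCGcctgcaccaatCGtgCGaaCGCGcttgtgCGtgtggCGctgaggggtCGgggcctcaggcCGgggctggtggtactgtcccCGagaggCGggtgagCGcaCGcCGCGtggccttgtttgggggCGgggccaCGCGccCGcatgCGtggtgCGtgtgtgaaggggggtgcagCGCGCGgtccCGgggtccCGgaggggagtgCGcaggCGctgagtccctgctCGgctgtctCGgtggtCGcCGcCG
ZSCAN1: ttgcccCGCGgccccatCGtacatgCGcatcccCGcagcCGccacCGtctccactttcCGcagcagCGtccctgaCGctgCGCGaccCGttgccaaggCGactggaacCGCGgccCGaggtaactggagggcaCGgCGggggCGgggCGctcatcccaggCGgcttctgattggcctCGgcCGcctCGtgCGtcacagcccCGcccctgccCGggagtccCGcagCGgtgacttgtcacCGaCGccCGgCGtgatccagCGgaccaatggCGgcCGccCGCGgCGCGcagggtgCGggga
ZIK1: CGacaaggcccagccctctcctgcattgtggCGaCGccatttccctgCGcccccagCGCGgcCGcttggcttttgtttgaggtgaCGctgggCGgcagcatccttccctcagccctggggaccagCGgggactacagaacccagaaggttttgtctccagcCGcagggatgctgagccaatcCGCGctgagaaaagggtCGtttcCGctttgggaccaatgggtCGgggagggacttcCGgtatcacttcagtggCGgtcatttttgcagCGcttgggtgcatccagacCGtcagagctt
ZNF132: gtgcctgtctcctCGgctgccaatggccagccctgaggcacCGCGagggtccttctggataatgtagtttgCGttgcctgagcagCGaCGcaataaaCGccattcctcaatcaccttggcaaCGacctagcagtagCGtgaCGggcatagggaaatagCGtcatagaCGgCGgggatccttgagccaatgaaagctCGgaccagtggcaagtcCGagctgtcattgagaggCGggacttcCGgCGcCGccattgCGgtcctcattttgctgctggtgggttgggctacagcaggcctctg
As the pairs were picked for their equal numbers, they test nothing about CpG content. RefSeq promoters were found for 58 of the 65 genes, with a median of 23 CpG against 14 over all promoters, 20 for the 10 silent genes with a promoter and 28 for the 9 up-regulated genes with a promoter. DNA methylation was not measured in these libraries.

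**Figure D4:**
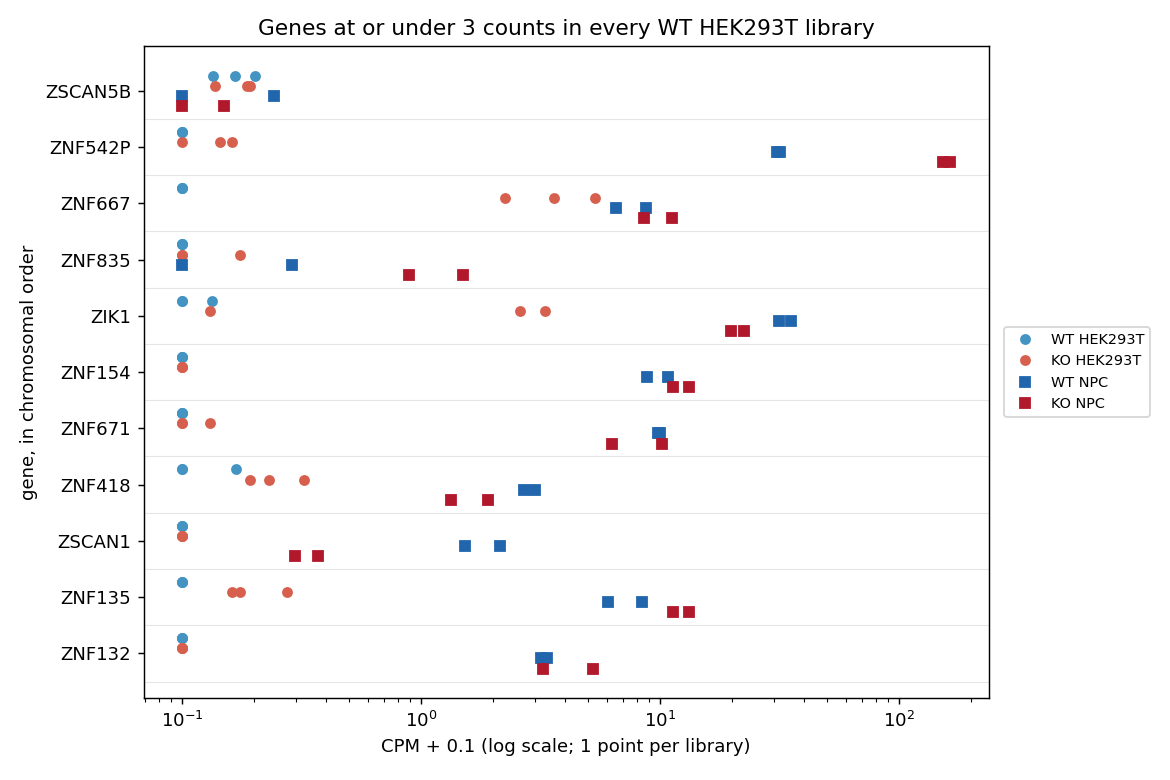
Level of the 11 genes with at most 3 counts in every WT HEK293T library, as CPM plus 0.1 on a log scale with 1 point per library, in chromosomal order. KO HEK293T points (red circles) leave the lower end of the axis for ZNF667 and, in 2 of 3 libraries, for ZIK1, while NPC points (squares) are well above it for most of the genes.

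In NPCs the direction was different. Of 65 genes tested, 4 (6.15%) were up-regulated and 3 (4.62%) down-regulated in the KO, against 8.45% and 8.36% of all genes, so that neither share stood above that of all genes. The median log2 FC was -0.24 against -0.02 over all genes, with 25 of 65 genes above 0. In 15 genes both KO libraries were above both WT libraries and in 30 genes below, against 33.3% and 33.8% of all genes. Of the 78 tested genes of the interval without a zinc finger symbol, 10 (12.8%) were up-regulated and 4 (5.13%) down-regulated, with a median of -0.07. The zinc finger genes on the rest of chromosome 19 had 27 of 189 up-regulated and 1 down-regulated, with a median of 0.27, and those on other chromosomes 9 of 283 up-regulated and 18 down-regulated, with a median of -0.22. The number of down-regulated genes was 5 without WT library S3, 0 without KO library S1 and 1 without KO library S2. With library size as the only scaling it was 6, where 9.7% of all genes were down-regulated and their median moved to -0.13.

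The 4 up-regulated genes all lie 1 to 2 Mb centromeric of ZNF274, where the median log2 FC was 0.96 over 11 genes and 10 of them lay above 0. ZFP28 was at 15.4 and 13.9 CPM in WT and 40.3 and 52.4 CPM in KO libraries (log2 FC 1.66 ± 0.18 SE, adjusted P value = 0.000860). ZNF583 was at 7.10 and 5.63 CPM in WT and 15.7 and 18.2 CPM in KO (log2 FC 1.41 ± 0.22 SE, adjusted P value = 0.00404). No other of the 65 genes was up-regulated in both cell types, while the antisense gene ZNF667-AS1 of the same stretch was (log2 FC 1.18 in NPCs, adjusted P value = 0.00286). The pseudogene ZNF542P, silent in HEK293T cells, was at 31.6 and 31.0 CPM in WT and 164 and 153 CPM in KO NPCs, 5.06-fold higher (log2 FC 2.34 ± 0.11 SE, adjusted P value = 4.27e-05). It overlaps ZNF582 on the opposite strand, and ZNF582 rose by less than 2-fold there (log2 FC 0.96, adjusted P value = 0.0379). ZNF835 had 4 and 0 counts in WT and 16 and 31 in KO (log2 FC 3.41 ± 1.02 SE, adjusted P value = 0.0449), and its call was lost without either KO library. ZFP28, ZNF583 and ZNF542P remained up-regulated whichever of the 4 NPC libraries was left out.

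The 3 down-regulated genes lie apart from each other. ZNF580, 2540 kb from ZNF274, fell from 8.57 and 9.93 CPM to 3.51 and 4.59 CPM (log2 FC -1.19 ± 0.27 SE, adjusted P value = 0.0164). ZSCAN1 had 43 and 28 counts in WT and 4 and 6 in KO libraries (log2 FC -2.85 ± 0.57 SE, adjusted P value = 0.0104). ZNF497 had 19 and 36 counts in WT and 1 and 2 in KO libraries, a counting ratio of 19.1 (95% interval 6.22 to 95.6, adjusted P value = 0.00915). Each of the 3 was separated by library, but the calls on ZNF580 and ZSCAN1 were lost without either KO library and that on ZNF497 without S1. ZSCAN18 and ZNF329, the called HEK293T genes nearest to ZNF274, were not called in NPCs. ZSCAN18 was at 27.6 and 27.7 CPM in WT and 32.9 and 37.4 CPM in KO NPCs (log2 FC 0.35, adjusted P value = 0.116), and ZNF329 at 19.3 and 18.4 CPM in WT and 27.2 and 25.3 CPM in KO (log2 FC 0.48, adjusted P value = 0.0569).

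The difference of the KO effects was tested directly as an interaction over all 10 libraries. The effect was lower in NPC than in HEK293T for 14 of the 65 genes and higher for 0, against 6.22% and 6.01% of all genes tested. Zinc finger genes elsewhere leaned the same way, with 29 lower and 7 higher of 189 on the rest of chromosome 19 and 34 lower and 5 higher of 283 on other chromosomes, and the median differences were -0.94 in the interval, -0.30 and -0.35. With DESeq2 these counts were 20 and 0, with voom 12 and 0, and at an unadjusted P value below 0.05 they were 26 and 0, where 5679 of 19255 genes in all passed. Of the 14 genes, 13 had a log2 FC above 0 in HEK293T cells, and the exception was ZNF497. Near ZNF274 the difference of log2 FC was -3.87 for ZSCAN18 (adjusted P value = 0.000345), -3.39 for ZNF606 (adjusted P value = 0.00113) and -2.81 for ZNF329 (adjusted P value = 0.000474). By position, the 14 include 13 of the 56 centromeric genes (23.2%) and 1 of the 9 telomeric genes (11.1%). The centromeric ones are 6 of 17 genes within 0.5 Mb of ZNF274 and 6 of 19 between 0.5 and 1 Mb. Farther away they are 1 of 11, ZNF667, between 1 and 2 Mb and 0 of 9 beyond 2 Mb. ZNF582, ZNF583, ZNF471, ZFP28 and ZNF470, the neighbours of ZNF667, had differences of -0.49 to -1.32 with adjusted P values of 0.0541 to 0.415. Without KO NPC library S1 or S2 the count of 14 was 7 or 8, without KO HEK293T library S20 it was 20 and with 1 gene (ZNF324B) higher, without S18 and S19 together it was 9, and with library size as the only scaling it was 22, where the median difference over all genes was -0.24. ZNF667, ZIK1, ZNF551, ZNF256, ZNF606, ZSCAN18 and ZNF329 remained called whichever of the 10 libraries was left out.

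**Figure D5:**
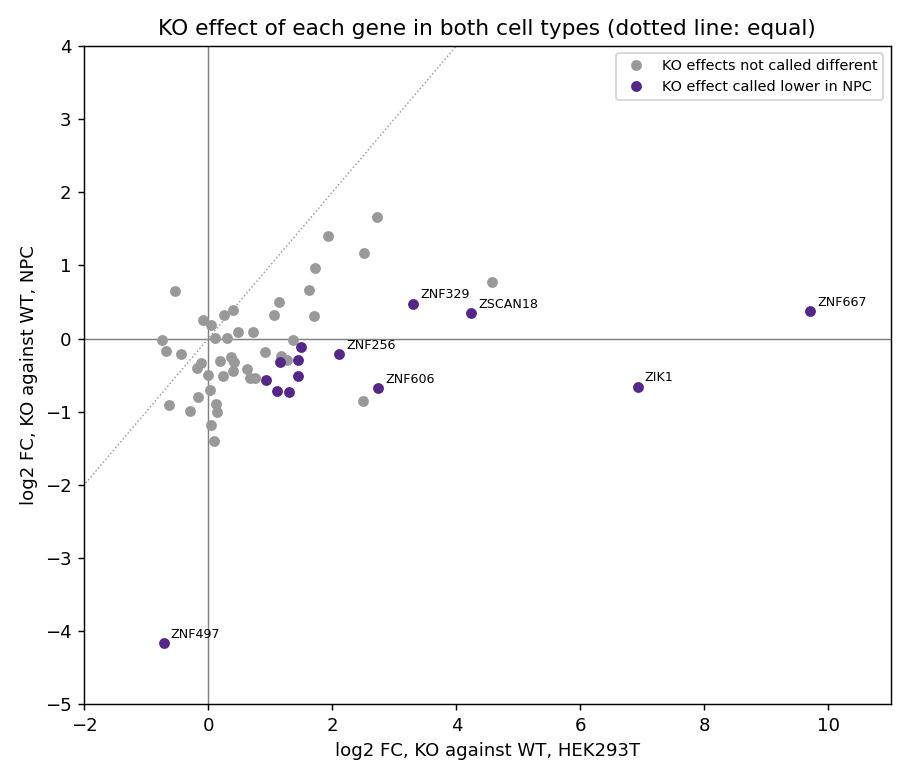
Fitted log2 FC of KO against WT in HEK293T (horizontal) and in NPC (vertical) for the 59 genes tested in both, with the dotted line at equal values and the 14 genes whose KO effect was called lower in NPC in purple. Most genes lie to the right of and below the line, with 28 above 0 in HEK293T and below 0 in NPC and 2 the other way round. ZNF667 and ZIK1 had 0 or 1 count in WT HEK293T libraries, so that their horizontal positions are no measure of size.

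The machinery that KRAB proteins recruit was measured in the same libraries. Of 27 genes for corepressors, H3K9 methyltransferases, heterochromatin proteins and DNA methyltransferases, 0 were called in HEK293T cells and 1 (TRIM28) had an unadjusted P value below 0.05. With 0.478% and 0.0105% of all genes called higher and lower there, a count of 0 in 27 says nothing particular to them. In NPCs 0 were called higher and 1 lower, against 8.45% and 8.36% of all genes, and 18 of 27 had an unadjusted P value below 0.05, where 8302 of 20577 genes did. Both KO libraries were below both WT libraries in 18 of these genes and above them in 5, against 33.8% and 33.3% of all genes. The gene that fell was DNMT3B, a de novo DNA methyltransferase abundant in pluripotent cells (log2 FC -1.91, adjusted P value = 0.00106). Of 4 pluripotency markers tested in NPCs, LIN28A fell (log2 FC -5.62), ZFP42 rose (log2 FC 3.17), and DPPA4 and NANOG were not called, with NANOG at 0 in both KO libraries. Their summed level was 139 to 161 CPM in WT and 65.1 to 70.4 CPM in KO NPCs, and its part in the fall of DNMT3B was not tested. Over the 27 genes the median log2 FC was -0.02 in HEK293T cells and -0.37 in NPCs, against 0.01 and -0.02 over all genes.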

How the data were processed

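The analysis used RNA-seq of HEK293T cells (3 WT, 3 KO) and NPCs (2 WT, 2 KO). The authors deposited raw counts, in a table for each cell type. Reads of a stranded mRNA kit had been aligned to hg19 by HISAT2, and featureCounts had kept those mapping to a single place. Strand was set in the alignment of stranded reads; the strand setting of the counting and the versions of both tools are not given in the sources used here. Reads shared by near-identical paralogs can be lost this way. Groups and library names came from the sample labels. Identifiers were mapped with a GENCODE annotation lifted to hg19, and 777 of 24050 had no match, so that a zinc finger gene of the interval may be missing. Of the 65 genes, 39 overlap another listed gene, 30 of them on the opposite strand.

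The test was edgeR 4.0.16 under R 4.3.3 (quasi-likelihood, TMM, Benjamini-Hochberg adjustment over all genes) for genes whose total count was at least the number of libraries. This left 19018 genes in HEK293T, 20577 in NPC and 19255 in the fit of all 10 libraries, which gave the interaction and the comparison of the WT groups. The study used voom with limma, here an alternative (limma 3.58.1), as was DESeq2 1.42.0. CPM values are TMM-normalized within each cell type, ± values are standard errors of the fit, and intervals and floors cover counting error only. KRAB A boxes and SCAN domains were found with HMMER 3.4 at an E-value of at most 1e-05 in coding sequences translated from the annotation. Distance was measured between the nearest ends of a gene and ZNF274.

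The genes, lists and tests were chosen with earlier results of these data known. Named were genes called in either cell type, up to 12 per direction, the 3 tested genes nearest to ZNF274 on each side, up to 6 per direction with different KO effects, and listed genes, not all of which are reported here. Other genes were named as examples after their values were seen, as was the omission of S18 and S19 together. No label pairs libraries. P values measure the spread between libraries, which the deposit describes as independent clones. No 2 libraries of a group agreed within sampling noise. The tests were checked on simulated counts.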

Additional observations from a re-analysis of the deposited data

Results flagged for a closer look

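For 14 genes the KO effect differed between the cell types by the interaction term of edgeR, in each case lower in NPC than in HEK293T, over 5 KO and 5 WT libraries. The differences of log2 FC were -9.13 for ZNF667 and -7.49 for ZIK1, both fitted values of genes with 0 or 1 count in WT HEK293T libraries, and -3.87 for ZSCAN18, -3.45 for ZNF497, -3.39 for ZNF606, -2.81 for ZNF329 and -2.31 for ZNF256. The remaining differences were -2.02 for ZNF530, -1.95 for ZNF551, -1.81 for ZNF776, -1.72 for ZNF772, -1.60 for ZNF416, -1.49 for ZNF211 and -1.46 for ZNF134. ZNF497 was the only gene of the 14 with a log2 FC below 0 in HEK293T cells (-0.72), and its call was kept in 3 of the 10 fits that leave out 1 library. Groups of 2 and 3 libraries are too small for a test of single outlying libraries.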

How the results depend on the processing

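In HEK293T cells, 11 genes rose and 0 fell. These counts were 5 to 19 and 0 to 1 with each library left out in turn, 20 up-regulated with DESeq2, and 5 without S18 and S19 together. In NPCs the counts of 4 and 3 were 3 to 6 and 0 to 5 with each library left out. With library size alone 6 were down-regulated, where 9.7% of all genes were, and 10 were with no FC threshold. The 14 genes with a lower KO effect in NPC were 7 to 20 with each library left out (0 to 1 with a higher effect), 9 without S18 and S19 and 22 with library size alone. Between WT groups, 20 genes were higher in NPC and 4 lower, with 17 to 20 and 2 to 6 when each library was left out and 8 lower with no FC threshold. The counts with no FC threshold are given without the share of all genes and are descriptions only. Over the genes that overlap no other gene, 4 were up-regulated in HEK293T, 0 up-regulated and 0 down-regulated in NPC, 7 had a lower KO effect in NPC, 7 were higher in WT NPC and 2 lower, which follows at least in part from their smaller number. Spearman's rho of log2 FC with distance, -0.55 over centromeric genes in HEK293T, was -0.55 to -0.49 with each library left out, -0.49 with filterByExpr, -0.41 with all libraries in 1 fit, -0.48 without S18 and S19 and -0.49 over genes of at least 1 CPM. Over both sides it was -0.18, with -0.29 to -0.15 when each library was left out, and -0.46 without S18 and S19. In NPC it was 0.10 to 0.18 over both sides and 0.087 to 0.21 over centromeric genes with each library left out. The median log2 FC of the nearest genes was 0.68 in HEK293T and -0.24 in NPC to 0.5 Mb, and 1.91 and -0.12 to 0.25 Mb, and the HEK293T medians were 0.46 and 0.87 with ZNF135 at its lower bound. Reversed were ZNF544 with voom (-0.62), and ZSCAN22 (0.21) and ZNF497 (0.16) in HEK293T without S18 and S19. For named genes, 391 values kept direction and side of the threshold, 45 lost and 2 gained a call. The cause of these changes was not tested. Genes near 3 counts are limited by depth. No paired analysis was possible because no label numbers the libraries across groups.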
